A study of Mus musculus with 8 samples.

Results

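The genes described here encode the route by which insulin and insulin-like growth factor 1 (IGF1) reach the kinase AKT: the ligand Igf1, the receptors Insr and Igf1r, the receptor substrates Irs1 and Irs2, the PI3 kinase subunit Pik3r1 and the kinases Akt1 and Akt2. Every probe set (a group of array probes that reads 1 transcript) annotated with exactly 1 of these 8 symbols was taken, which gave 11 of the 21789 probe sets with 1 symbol and 8 of 19938 genes. Akt2, Insr and Irs1 each had 2 probe sets, and these are given separately. By RefSeq the genes lie on mouse chromosomes 1 (Irs1), 7 (Igf1r and Akt2), 8 (Insr and Irs2), 10 (Igf1), 12 (Akt1) and 13 (Pik3r1). RNA came from adipose precursors (APs) of male C57BL/6J mice aged 7 to 8 weeks that had eaten a high fat diet (HFD) or a standard diet (SD) for 3 days. Visceral precursors (viAPs) were from perigonadal fat and subcutaneous precursors (scAPs) from inguinal fat, purified with beads that removed cells carrying CD45 or CD31 and then held cells carrying SCA-1. The groups were HFD viAP, SD viAP, HFD scAP and SD scAP, with 2 arrays each, 8 arrays in all. Each array held the pooled RNA of 3 mice, so that the p-values measure the spread between pools. Levels are log2 of the RMA intensity, and a change of 1 is a 2-fold change.

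When insulin or IGF1 binds its receptor, a tyrosine kinase, the receptor phosphorylates the IRS docking proteins. These recruit PI3 kinase through its regulatory subunit, the lipid that PI3 kinase makes brings AKT to the membrane, and AKT is phosphorylated there. Active AKT drives glucose uptake, protein synthesis and proliferation and keeps FOXO transcription factors out of the nucleus. In fat the pathway is known for glucose uptake by adipocytes and for the growth and differentiation of their precursors. The study examined how the enzyme HO-1 restrains the proliferation of APs on HFD, and measured AKT2 phosphorylation in viAPs for this. The arrays measure mRNA, not phosphorylation.

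Of 6 measured precursor markers 5 passed a log2 level of 7 on at least 3 arrays, with Pdgfra at 11.01 to 11.56 and Cd34 at 11.38 to 12.37. Cd24a, at 5.29 to 6.70, did not pass, and Ly6a, which encodes SCA-1, was not measured. Of the leukocyte markers 0 of 10 passed that level, and of the mature adipocyte markers 0 of 7. SD viAP replicate 4 stood apart from its partner and had the depot markers of a subcutaneous pool. Over all tested probe sets it correlated at 0.980 with its partner and at 0.988 with a subcutaneous array, SD scAP replicate 2. Whether this pool was mislabelled or mixed was not tested. Its level of Tbx15, a subcutaneous transcription factor, was 9.77, against 4.70 in SD viAP replicate 3 and 9.34 to 9.67 in SD scAPs. Values without this array are given where leaving it out changed a call or moved a change strongly. In viAPs the precursor markers summed to an intensity of 12039 to 12334 on HFD and 7053 to 8711 on SD, and the proliferation markers to 1256 to 1532 on HFD and 360 to 392 on SD. In scAPs the endothelial markers summed to 2893 to 2929 on HFD and 1592 to 1683 on SD, with 3 of the 12 above the level filter and Pecam1, which encodes CD31, at 7.78 and 7.70 on HFD. The mature adipocyte markers summed to 333 to 360 on HFD and 451 to 509 on SD in viAPs. In scAPs they summed to 366 to 398 on HFD and 481 to 489 on SD. The leukocyte markers summed to 424 to 427 on HFD and 487 to 565 on SD in viAPs, and to 449 to 457 and 438 to 452 in scAPs. The part of all these markers in the results below was not tested. In pooled cells fewer cells of a type and less RNA per cell cannot be told apart.

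In viAPs HFD raised the mRNA of Akt1 by 1.54-fold and of Akt2, read by probe set 10551393, by 1.79-fold. The other Akt2 probe set, 10374364, whose annotation is uncertain, was 1.38-fold higher and not called (adjusted p = 0.0851, limma). Both viAP calls were lost in a fit of only the viAP arrays and after a second quantile normalization. In the mean of the 2 depots, called over both depots here, Irs2, Akt1 and both Akt2 probe sets were higher on HFD, by 1.28-fold to 1.46-fold. For Akt2 probe set 10551393 this is the mean of a log2 change of 0.84 in viAPs and -0.12 in scAPs, so it did not rise in both. No member passed the test in scAPs alone, between depots or for a different diet change in the 2 depots. The limma fit called 2 of the 11 member probe sets in viAPs (adjusted p under 0.05), both higher, against 10.4% of all probe sets in either direction and 8.45% higher. It called 4 of 11 over both depots, all higher, against 17% of all probe sets and 12.1% higher. In scAPs it called 0 of 11, against 1.17% of all probe sets, and 3 members had an unadjusted p under 0.05, against 16.7% of all probe sets. Of the 11 members 10 were past the level filter, where the shares were higher. With only such probe sets tested, 30.3% were called in viAPs, 39.1% over both depots and 8.52% in scAPs. The counts of 2 of 11 and 4 of 11 come from the fit over all 21789 probe sets, so these shares are not like for like. With only such probe sets tested, Irs2 was also called in viAPs and in scAPs. Over the alternative settings other than leaving out 1 array, at most 3 members were called in viAPs, 4 over both depots and 1 in scAPs. Beside these shares none of those counts is an excess.

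With 2 arrays against 2, arrays of separate groups often fail to overlap, so these counts are given beside the same count over all probe sets. That share was not counted for the probe sets past the level filter, which 10 of the 11 members passed. In viAPs both HFD arrays were above both SD arrays for 6 of 11 members, against 28.9% of all probe sets, and below them for 0 of 11, against 31.2% (60.1% in either direction). In scAPs HFD was above SD for 5 of 11 members, against 21.7%, and below for 2 of 11, against 18.8% (40.5% in either direction). The 4 probe sets with HFD above SD in both depots, against 14.9% of all probe sets, were Akt1, Irs2, Akt2 probe set 10374364 and Irs1 probe set 10356084.

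The counts of calls rest on how the arrays are scaled. The median diet change of probe sets past the level filter, called well-measured here, was 0.30 in viAPs and 0.18 in scAPs, against -0.05 and -0.00 over all probe sets. The median of the 11 members was 0.40 in viAPs and 0.15 in scAPs, and 7 of 11 members in viAPs and 5 of 11 in scAPs lay above the median of the well-measured probe sets. After a second quantile normalization, which gives each array the same distribution of values, 0 members were called in any comparison. The share of all calls in viAPs that were higher was then 65.6%, against 81.3% with the deposited scaling, and over both depots it was 57.6%, against 70.9% with the deposited scaling and 83% after median centring.

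**Figure D1:**
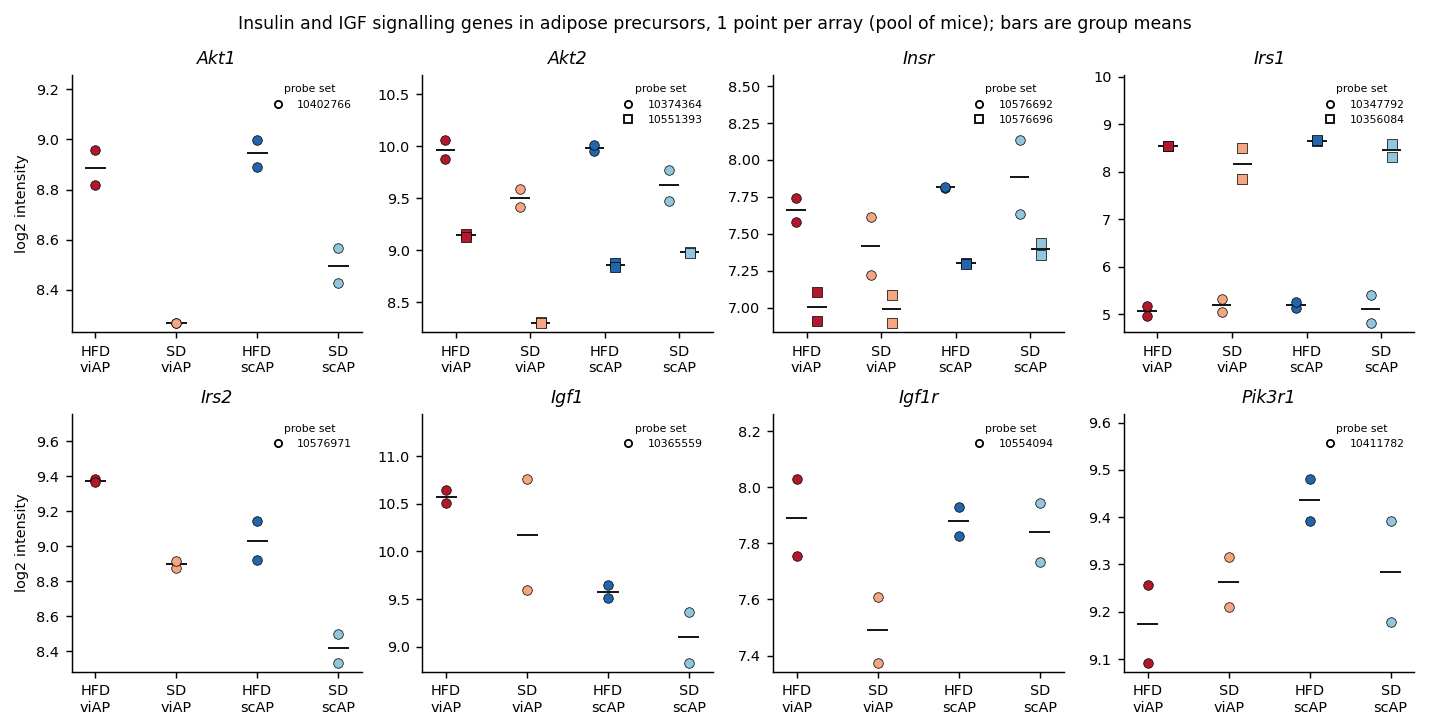
Log2 intensity (vertical axis) of each member probe set on the 8 arrays, 1 panel per gene, with HFD left of SD in each depot. Points are arrays, each a pool of mice, and bars are group means of 2 arrays. Akt1 and Irs2 lie higher on HFD in both depots, while Akt2 probe set 10551393 is lowest in SD viAPs, at 8.31 and 8.30.

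Igf1 encodes the secreted ligand of the IGF1 receptor and was read by probe set 10365559. Its level was 10.51 and 10.64 in HFD viAPs, against 10.75 and 9.59 in SD viAPs. In scAPs it was 9.65 and 9.51 on HFD, against 8.84 and 9.36 on SD. The HFD viAP values lay between the SD viAP values, of which that of replicate 4, at 9.59, was among the scAPs, and in scAPs HFD was above SD. The HFD change was 0.40 ± 0.33 in viAPs (log2 change ± SE, adjusted p = 0.450, limma) and 0.48 ± 0.33 in scAPs (adjusted p = 0.519), and neither was called. Without SD viAP replicate 4 the viAP change was -0.18 (adjusted p = 0.692), so that array set its sign. Over both depots the change was 0.44 ± 0.23 (adjusted p = 0.227), and it was called without SD viAP replicate 3 (0.73, adjusted p = 0.0270) but not without replicate 4 (0.15, adjusted p = 0.551).

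Insr encodes the insulin receptor. Probe set 10576692 spanned 7.58 to 7.74 in HFD viAPs, 7.22 to 7.61 in SD viAPs, 7.81 to 7.82 in HFD scAPs and 7.64 to 8.13 in SD scAPs, with HFD and SD overlapping in each depot. Probe set 10576696 spanned 6.91 to 7.11 in HFD viAPs and 6.89 to 7.09 in SD viAPs, and 7.29 to 7.30 in HFD scAPs and 7.36 to 7.43 in SD scAPs, so that HFD lay below SD in scAPs only. The diet changes of the Insr probe sets lay between -0.10 and 0.24, and none was called. Without SD viAP replicate 4 the viAP changes were 0.44 for 10576692 (adjusted p = 0.304) and 0.11 for 10576696 (adjusted p = 0.697). With all 8 arrays the 95% intervals of the Insr probe sets in viAPs, -0.20 to 0.69 and -0.29 to 0.32, leave room for a change of either sign.

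Igf1r encodes the IGF1 receptor. It was at 8.03 and 7.75 in HFD viAPs, above the 7.38 and 7.61 in SD viAPs, with no overlap. In scAPs the values of 7.83 and 7.93 on HFD lay between the 7.94 and 7.73 on SD. The viAP change was 0.40 ± 0.15 and was not called (adjusted p = 0.130), also not without SD viAP replicate 4 (0.52, adjusted p = 0.167), and the scAP change was 0.04 ± 0.15 (adjusted p = 0.933). Across the groups Igf1r was lowest in SD viAPs, and the other 3 groups overlapped each other.

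The receptor substrates Irs1 and Irs2 dock PI3 kinase on the activated receptor. Irs1 probe set 10356084 was at 8.54 and 8.54 in HFD viAPs and at 7.84 and 8.50 in SD viAPs. In scAPs it was at 8.64 and 8.66 on HFD and at 8.59 and 8.30 on SD. The HFD arrays lay above the SD arrays in both depots, but SD viAP replicate 4, at 8.50, lay close below HFD. The change over both depots was 0.29 ± 0.15 (adjusted p = 0.204), and it was 0.45 and called without that array (adjusted p = 0.0447). Irs1 probe set 10347792 stayed between 4.81 and 5.39 on all arrays, below the level filter, and did not separate any groups. It was the 1 member probe set of 11 under that filter.

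Irs2 was at 9.38 and 9.36 in HFD viAPs and at 8.88 and 8.92 in SD viAPs. In scAPs Irs2 was at 9.14 and 8.92 on HFD and at 8.34 and 8.50 on SD. HFD arrays were higher than SD arrays in both depots, and the groups ran in the order HFD viAP, HFD scAP, SD viAP and SD scAP. HFD scAP replicate 8 and SD viAP replicate 4 were both at 8.92 after rounding, and the other neighbours in that order did not touch. The change was 0.48 ± 0.13 in viAPs (adjusted p = 0.0569) and 0.61 ± 0.13 in scAPs (adjusted p = 0.0670), each just short of the threshold. Over both depots Irs2 rose by 0.54 ± 0.09 (adjusted p = 0.00822). With only probe sets above the level filter tested, Irs2 was also called in viAPs (adjusted p = 0.0353, with 30.3% of the 7315 probe sets tested then called) and in scAPs (adjusted p = 0.0374, with 8.52% called). The call over both depots was lost without HFD viAP replicate 5 (0.54, adjusted p = 0.0644) and after the second quantile normalization (0.21, adjusted p = 0.288), and stood without SD viAP replicate 4 (0.55, adjusted p = 0.0266).

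FOXO factors, which AKT inhibits, are known to act on Irs2, so the sequences before the transcription starts of the members were searched for 3 motifs on both strands. These were the E-box CACGTG, the forkhead motif TGTTTAC and the insulin response motif TGTTTTG. RefSeq (GRCm38.p6) gave windows of 300 bases, with 250 before the start and 50 after it, for 7 of the 8 members (all but Insr), and 12 windows in all. An E-box was in 7.15% of 32817 such windows, TGTTTAC in 3.65%, TGTTTTG in 6.29%, and an E-box and TGTTTTG together in 0.408%. Irs2 and Irs1 each held an E-box with TGTTTTG, and 1 Akt1 window held TGTTTAC. No match was found in the windows of Akt2, Igf1, Igf1r and Pik3r1. The 250 bases before these 3 starts are shown because Irs2 and Akt1 rose over both depots and Irs1 shares the motifs of Irs2. They lie at chr8:11008930-11009179 for Irs2, chr1:82291440-82291689 for Irs1 and chr12:112674885-112675134 for Akt1, all on the minus strand, and capitals mark the motifs.
Irs2: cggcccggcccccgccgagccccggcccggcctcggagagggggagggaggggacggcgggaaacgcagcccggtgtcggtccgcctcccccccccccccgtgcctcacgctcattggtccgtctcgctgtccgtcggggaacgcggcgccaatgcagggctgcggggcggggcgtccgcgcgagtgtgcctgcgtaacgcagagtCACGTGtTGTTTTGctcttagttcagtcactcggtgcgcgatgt
Irs1: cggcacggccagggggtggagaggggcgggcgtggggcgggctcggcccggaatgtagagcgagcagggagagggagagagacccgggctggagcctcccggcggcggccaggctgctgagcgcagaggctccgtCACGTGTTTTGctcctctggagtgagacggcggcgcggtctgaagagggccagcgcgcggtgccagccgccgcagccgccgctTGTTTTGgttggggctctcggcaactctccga
Akt1: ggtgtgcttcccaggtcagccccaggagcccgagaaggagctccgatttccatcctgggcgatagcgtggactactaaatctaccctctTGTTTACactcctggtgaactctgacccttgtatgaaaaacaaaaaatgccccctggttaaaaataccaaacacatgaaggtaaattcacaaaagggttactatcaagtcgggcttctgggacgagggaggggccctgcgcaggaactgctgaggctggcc
The E-box of Irs2 began 44 bases before the start and TGTTTTG 37 bases before it, with 1 base between them. In Irs1 the E-box began 115 bases before the start and overlapped TGTTTTG by 2 bases, and another TGTTTTG began 32 bases before the start. In Akt1 the forkhead motif began 161 bases before the start. These matches describe the sequence only, and binding was not measured.

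Pik3r1 encodes p85 alpha, the main regulatory subunit of class I PI3 kinase. Its 8 values spanned 9.09 to 9.48, with 9.26 and 9.09 in HFD viAPs, 9.21 and 9.32 in SD viAPs, 9.39 and 9.48 in HFD scAPs and 9.39 and 9.18 in SD scAPs. HFD and SD overlapped in both depots. The change was -0.09 ± 0.14 in viAPs (95% interval -0.40 to 0.22) and 0.15 ± 0.14 in scAPs (95% interval -0.16 to 0.46). After the second quantile normalization the viAP change was -0.50 (adjusted p = 0.0551), and over both depots it was -0.31 (adjusted p = 0.0559).

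Akt1, the AKT kinase known for growth and survival, was at 8.96 and 8.82 in HFD viAPs and at 8.27 and 8.27 in SD viAPs. In scAPs Akt1 was at 8.997 and 8.89 on HFD and at 8.57 and 8.43 on SD. All 4 HFD arrays lay above all 4 SD arrays. HFD raised Akt1 by 0.62 ± 0.13 in viAPs (adjusted p = 0.0224) and by 0.53 ± 0.09 over both depots (adjusted p = 0.00747), while the scAP change of 0.45 ± 0.13 was not called (adjusted p = 0.125). The change of Akt1 was larger than that of 77.9% of well-measured probe sets in viAPs and of 79.9% in scAPs. The viAP call was lost without SD viAP replicate 4 (0.62, adjusted p = 0.0880), without SD viAP replicate 3 (adjusted p = 0.0542), without either HFD viAP array (adjusted p = 0.108 and 0.226) and without either HFD scAP array (adjusted p = 0.0520). It was also lost after the second quantile normalization (0.22, adjusted p = 0.350) and in a fit of only the viAP arrays (adjusted p = 0.0733). The call over both depots stood without SD viAP replicate 4 (0.53, adjusted p = 0.0248) and was lost without HFD viAP replicate 5 (0.50, adjusted p = 0.0613) and after the second quantile normalization (0.21, adjusted p = 0.174).

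Akt2, the AKT kinase known for insulin-stimulated glucose uptake, was read by probe sets that gave different patterns. Probe set 10551393 was at 9.16 and 9.13 in HFD viAPs and at 8.31 and 8.30 in SD viAPs. In scAPs it was at 8.88 and 8.84 on HFD and at 8.99 and 8.97 on SD. The groups did not overlap in any pair, and SD viAPs stood apart as the lowest group. HFD raised this probe set by 0.84 ± 0.12 in viAPs (adjusted p = 0.00747), more than 89.4% of well-measured probe sets. In scAPs its change was -0.12 ± 0.12 (95% interval -0.39 to 0.14, adjusted p = 0.657), and after the second quantile normalization -0.39 ± 0.13 (adjusted p = 0.224). SD viAP replicate 4, which carried subcutaneous depot markers, was at 8.30 and lay with its viAP partner and not with the SD scAPs. Without it the viAP change was 0.83 and still called (adjusted p = 0.0499), where 1.01% of all probe sets were called. The call was lost without HFD viAP replicate 5 (0.82, adjusted p = 0.146) or replicate 6 (0.85, adjusted p = 0.0856), in a fit of only the viAP arrays (adjusted p = 0.0680) and after the second quantile normalization (0.42, adjusted p = 0.0958). Over both depots the change was 0.36 ± 0.08 (adjusted p = 0.0215), and 0.35 without SD viAP replicate 4 (adjusted p = 0.0458). That call was lost without any 1 of the 4 HFD arrays (adjusted p = 0.0618 to 0.103), and after the second quantile normalization the change was 0.02 (adjusted p = 0.929).

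Probe set 10374364 of Akt2 was at 10.06 and 9.87 in HFD viAPs and at 9.59 and 9.42 in SD viAPs. In scAPs it was at 9.95 and 10.02 on HFD and at 9.77 and 9.47 on SD. Here the 4 HFD arrays lay above the 4 SD arrays, and the depots overlapped under each diet. The change was 0.46 ± 0.15 in viAPs (adjusted p = 0.0851), 0.36 ± 0.15 in scAPs (adjusted p = 0.274) and 0.41 ± 0.11 over both depots (adjusted p = 0.0322). The call over both depots was lost without SD viAP replicate 4 (0.37, adjusted p = 0.0905), without SD scAP replicate 2 (adjusted p = 0.0768), without any 1 of the 4 HFD arrays (adjusted p = 0.0776 to 0.152) and after the second quantile normalization (0.06, adjusted p = 0.703). The annotation of this probe set is uncertain. Akt2 lies on chromosome 7, as did the genes of all 10 probe sets with neighbouring numbers for 10551393. The 10 neighbours of 10374364, with Vstm2a before it and Egfr after it, all belong to genes on chromosome 11. The comparisons between depots below therefore describe Akt2 by 10551393, and the pathway counts are given with each probe set.

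**Figure D2:**
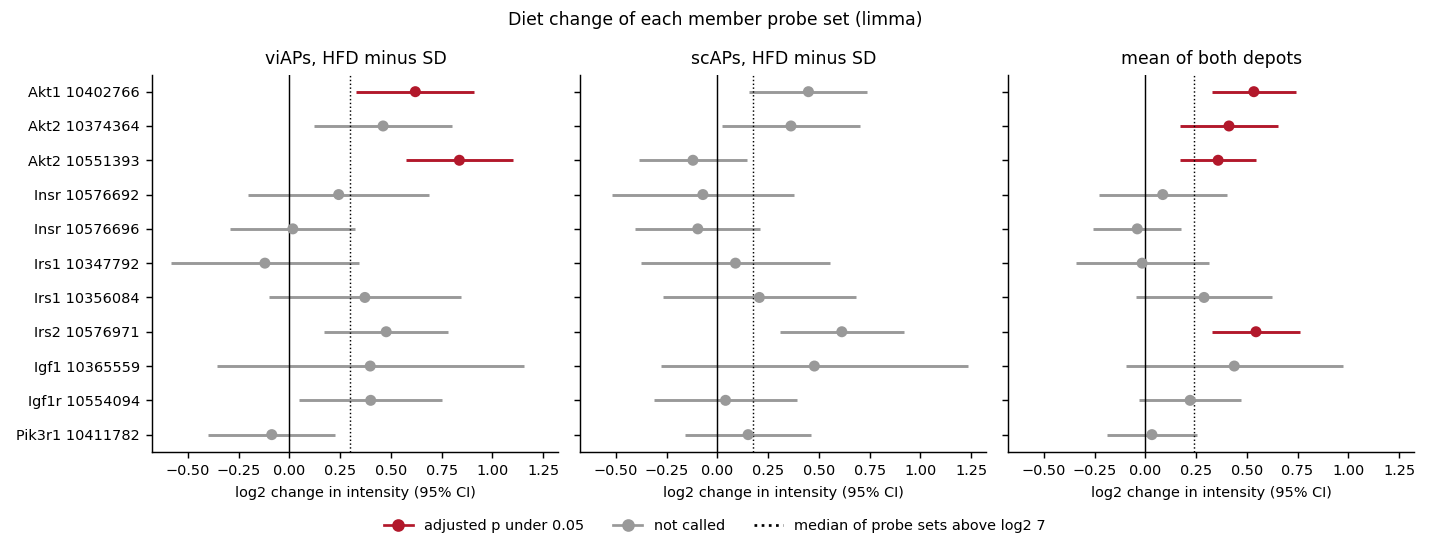
Log2 change in intensity, HFD minus SD, of each member probe set in viAPs, in scAPs and as the mean of both depots, with 95% intervals from limma. Red marks an adjusted p under 0.05, and the dotted line is the median of probe sets above a log2 level of 7 (0.30, 0.18 and 0.24 from left to right). Akt1 and Akt2 probe set 10551393 are called in viAPs, and the interval of that Akt2 probe set spans 0 in scAPs.

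The diet change of the members was then compared between depots. Akt2 probe set 10551393 had the widest gap, with a viAP change 0.96 ± 0.16 above its scAP change (95% interval 0.58 to 1.33) and above 98.5% of well-measured probe sets. The unadjusted p was 0.000304, and the adjusted p was 0.186, so that the difference was not called. Of all probe sets 0.00459% were called in this comparison, and 0 of the 11 members, of which 1, this probe set, had an unadjusted p under 0.05, against 7.34% of all probe sets. The gap was 0.95 without SD viAP replicate 4 (adjusted p = 0.492) and 0.81 after the second quantile normalization (adjusted p = 0.297). For the other members the gap lay between -0.24 and 0.36, and each 95% interval spanned 0. With SD viAP replicate 4 left out it lay between -0.66 (Igf1) and 0.51 (Insr probe set 10576692), with Irs1 probe set 10356084 at 0.49 and Igf1r at 0.48, and none was called (adjusted p = 0.750 to 1). Irs2 had a gap of -0.14 ± 0.19 and Akt1 of 0.17 ± 0.18, whose intervals (-0.57 to 0.30 and -0.24 to 0.58) do not show that the depots responded alike.

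Between depots Igf1 had the largest difference of the members. On HFD Igf1 was 0.99 ± 0.33 higher in viAPs than in scAPs (adjusted p = 0.266), and both viAP arrays (10.51 and 10.64) lay above both scAP arrays (9.65 and 9.51). On SD it was 1.07 ± 0.33 higher in viAPs (adjusted p = 0.317). These changes exceeded those of 98.2% and 99.5% of well-measured probe sets. The fit called 0 of 11 members on HFD, against 1.51% of all probe sets, and 3 members had an unadjusted p under 0.05, against 10.5% of all probe sets. On SD it called 0 of 11, against 0% of all probe sets, with 5 members and 11.6% of all probe sets at an unadjusted p under 0.05. Without SD viAP replicate 4, Igf1 was 1.65 ± 0.23 higher in SD viAPs than in SD scAPs and was called (adjusted p = 0.0423), the 1 member of 11, against 0.932% of all probe sets. On HFD its adjusted p was then 0.0568, with 2.76% of all probe sets called. With array weights it was called on HFD (adjusted p = 0.0474).

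The other members differed less between depots, and none was called. On HFD 3 of 11 members had both viAP arrays above both scAP arrays (20.3% of all probe sets) and 4 had them below (20%, and 40.3% in either direction). On SD 2 of 11 were above (16.9%) and 5 below (15.9%, and 32.7% in either direction). On SD, Akt2 probe set 10551393 was 0.67 ± 0.12 lower in viAPs than in scAPs (adjusted p = 0.261), and on HFD it was 0.28 ± 0.12 higher (adjusted p = 0.422). Irs2 was 0.48 ± 0.13 higher in viAPs on SD (adjusted p = 0.300) and 0.34 ± 0.13 higher on HFD (adjusted p = 0.386). The Insr probe sets were 0.47 ± 0.20 and 0.40 ± 0.14 lower in viAPs on SD (adjusted p = 0.414 and 0.346). When SD viAP replicate 4 was left out the SD differences (viAP minus scAP) were -0.67 for Akt2 probe set 10551393, 0.46 for Irs2 and -0.67 and -0.50 for the Insr probe sets, and none was called (adjusted p = 0.0903 to 0.283). These depot and diet comparisons share arrays, so the values stand side by side and are not independent.

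Igf1 was the only member whose group means spanned more than 1 on the log2 scale (1.47). Among 7135 well-measured probe sets, those most like it over the 8 arrays were Anxa9 (Pearson r = 0.988), Cacng7 (r = 0.981) and C7 (r = 0.978). Anxa9 encodes an annexin, Cacng7 a calcium channel subunit and C7 a complement component. Anxa9 was at 7.34 and 7.53 in HFD viAPs, 7.46 and 5.88 in SD viAPs, 6.15 and 5.93 in HFD scAPs and 5.36 and 5.81 in SD scAPs. As with Igf1, SD viAP replicate 4 (5.88) lay with the scAPs. The correlations describe these 8 arrays, which fall into depots, and carry no test.

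The proteins that hold IGF1 outside the cell were read next. Of 12 IGF binding proteins and their proteases, 1 was higher and 2 were lower on HFD in viAPs, with a list median of -0.02, against -0.06 over all genes. Of all probe sets 8.45% were called higher and 1.95% lower. Igfbp3, a carrier of circulating IGFs, was at 6.75 and 6.98 in HFD viAPs, 7.89 and 8.55 in SD viAPs, 7.98 and 8.09 in HFD scAPs and 8.11 and 8.34 in SD scAPs. HFD viAPs alone were low for Igfbp3. It fell by 1.35 on the log2 scale on HFD in viAPs (adjusted p = 0.0106) and was 1.17 lower in viAPs than in scAPs on HFD (-1.17, adjusted p = 0.0402). Without SD viAP replicate 4 the viAP change was -1.02 (adjusted p = 0.0540). The depot call was lost without any 1 of the 4 HFD arrays (adjusted p = 0.278 to 0.488) and without either SD scAP array (adjusted p = 0.124). Igfbp4, which also binds IGFs, rose by 0.59 in viAPs (adjusted p = 0.0399), and Igfals, which stabilises the circulating complex, fell by 0.46 (adjusted p = 0.0498) with a level below the filter.

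Igfbp5 and Pappa, a protease that cleaves IGF binding proteins, were chosen after their values were seen because SD viAP replicate 4 lay with or near the scAPs for them. Igfbp5 was at 8.50 and 8.99 in HFD viAPs, 8.00 and 11.38 in SD viAPs, 11.83 and 12.15 in HFD scAPs and 11.86 and 11.61 in SD scAPs. Its depot difference on SD (viAP minus scAP) was -2.04 with that array and -3.73 without it. Pappa was at 7.09 and 6.92 in HFD viAPs, 7.02 and 5.98 in SD viAPs, 6.11 and 5.93 in HFD scAPs and 5.52 and 5.88 in SD scAPs. Its depot difference on SD was 0.80 with that array and 1.32 without it. Since the choice fixed this pattern, the values are a description and carry no test.

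**Figure D3:**
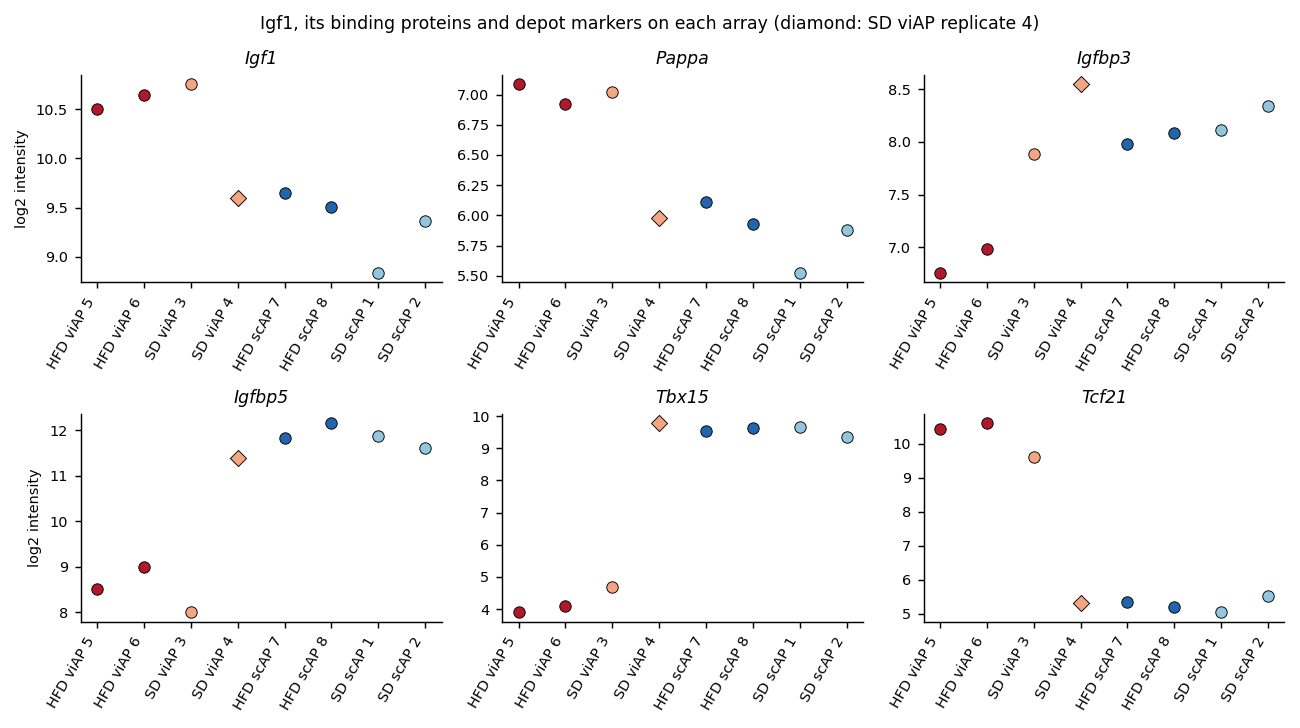
Log2 intensity of Igf1, Pappa, Igfbp3 and Igfbp5 and of the depot markers Tbx15 (subcutaneous) and Tcf21 (visceral), with 1 point per array. The diamond is SD viAP replicate 4, which lies with the scAPs for Igf1 (9.59), Tbx15 (9.77) and Tcf21 (5.32).

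Around the 8 members, 10 lists of ligands, regulators and targets of the pathway held 120 genes, of which 116 were measured, the members included, each by its probe set with the highest mean (for Akt2 this was 10374364). In viAPs 16 rose and 6 fell on HFD, or 19%, against 8.45% of all probe sets higher and 1.95% lower, and 17 rose with Akt2 read by 10551393, a reading added after seeing the data. In scAPs 1 rose, or 0.862%, against 1.17% of all probe sets. Over both depots 28 rose and 5 fell with either Akt2 probe set, or 28.4%, against 12.1% of all probe sets higher and 4.96% lower. Among genes past the level filter the shares were close to those of all probe sets past it: 24 of 73 pathway genes (32.9%) were called in viAPs, against 30.3%, and 29 of 73 (39.7%) over both depots, against 39.1%. With the filter on level and spread, 20 of 31 (64.5%) were called in viAPs, against 65%, and 19 of 31 (61.3%) over both depots, against 72.6%. Between depots 2 of 116 were lower in viAPs on HFD, Igfbp3 and Grb14, or 1.72%, against 1.51% of all probe sets called in either direction. On SD 0 were called, against 0% of all probe sets. Without SD viAP replicate 4 the fit called 1 pathway gene in viAPs (2 with Akt2 read by 10551393), against 1.01% of all probe sets, and 23 over both depots (24 with 10551393), against 10.6%. After the second quantile normalization it called 4 in viAPs, of which 1 was higher, against 982 of all 21789 probe sets. Over both depots it then called 14, against 2038 of all probe sets. For the fits without another array, given next, the share of all probe sets was not counted. Leaving out other arrays also moved the counts: in viAPs they were 14 without SD viAP replicate 3 and 6 when 1 of the HFD scAP arrays was dropped, and over both depots 19 without SD scAP replicate 2, 2 and 9 without HFD viAP replicate 5 and replicate 6, and 9 and 13 without HFD scAP replicate 7 and replicate 8.

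Among ligands and receptors, Igf2r, which clears IGF2, rose by 0.88 in viAPs (adjusted p = 0.0294) and by 0.88 over both depots (adjusted p = 0.00602). Of all probe sets 8.45% were called higher in viAPs and 1.06% in scAPs. The growth hormone axis, which induces Igf1, had 1 of 6 genes higher in each depot, and this was Jak2, the kinase of the growth hormone receptor. Jak2 was at 8.65 and 8.51 in HFD viAPs, 7.64 and 7.69 in SD viAPs, 8.83 and 8.71 in HFD scAPs and 8.00 and 7.98 in SD scAPs. All HFD arrays were above all SD arrays for Jak2. It rose by 0.91 in viAPs (adjusted p = 0.00725) and by 0.78 in scAPs (adjusted p = 0.0317). In viAPs Jak2 was still called without SD viAP replicate 4 (0.94, adjusted p = 0.0499). In scAPs it was not called without that array (0.78, adjusted p = 0.0563) or without any other array (adjusted p = 0.0563 to 0.284).

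Of 16 adaptors and receptor inhibitors, 2 rose and 2 fell in viAPs, against 8.45% of all probe sets higher and 1.95% lower. Socs3, an inhibitor of cytokine and insulin receptors, rose by 0.65 (adjusted p = 0.0394), and Shc1, an adaptor towards the RAS pathway, by 0.49 (adjusted p = 0.0396). Irs3, the rodent IRS protein of adipocytes, fell by 0.87 (adjusted p = 0.0107), and Grb14, an inhibitor of the insulin receptor, fell by 0.67 (adjusted p = 0.0415). Irs3 and Grb14 lay below the level filter. The mature adipocyte markers also summed lower on HFD than on SD in viAPs, and their part in the Irs3 fall was not tested. Over both depots 6 of these 16 genes rose and 1 fell, against 12.1% of all probe sets higher and 4.96% lower. Among those that rose, beside Irs2, were Socs3 (0.50, adjusted p = 0.0209) and the docking protein Gab1 (0.44, adjusted p = 0.0143). Of 13 PI3 kinase subunits 1 rose in viAPs, Pik3c2a, a class II enzyme (0.84, adjusted p = 0.0407), and over both depots Pik3r3, a regulatory subunit like Pik3r1, rose as well (0.49, adjusted p = 0.0256). Of 6 inositol lipid phosphatases, which remove the lipid that activates AKT, none was called in any comparison.

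Downstream, 2 of 14 AKT kinases and regulators rose in viAPs, Akt1 and Trib1, a pseudokinase, and 3 of 14 with Akt2 read by 10551393. Trib1 was at 10.47 and 10.39 in HFD viAPs, 9.38 and 9.32 in SD viAPs, 10.32 and 9.92 in HFD scAPs and 9.14 and 9.51 in SD scAPs, with HFD above SD in both depots. It rose by 1.08 in viAPs (adjusted p = 0.0115). Of all probe sets 8.45% were called higher in viAPs, and 28% of those past the level filter when only those were tested. Of 21 AKT substrates and output genes, 13 of them past that filter, 6 rose in viAPs and 0 fell. This count is from the fit of all probe sets and includes Tbc1d1, which lay below the filter. The 28% is therefore not counted over the same genes. The largest rises were in Slc2a1, the glucose transporter GLUT1 (1.45, adjusted p = 0.0239), Gsk3b, a kinase that AKT inhibits (0.88, adjusted p = 0.0252), Rptor, the raptor subunit of mTORC1 (0.86, adjusted p = 0.0284), and Mdm2, the ubiquitin ligase of p53 (0.84, adjusted p = 0.0196). Over both depots Pdpk1, the kinase PDK1 that phosphorylates AKT, rose by 0.32 (adjusted p = 0.0495). The Slc2a1 rise was 0.95 without SD viAP replicate 4 (adjusted p = 0.104), which at 7.55 was the lowest of the 8 arrays for this gene.

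Of all probe sets 8.45% were called higher and 1.95% lower in viAPs, and 12.1% higher and 4.96% lower over both depots. Of 8 mTORC1 inhibitors 2 rose in viAPs, the arginine sensor Castor1 (0.68, adjusted p = 0.0314) and its paralogue Castor2 (0.58, adjusted p = 0.0308). Of 20 genes known to be raised by FOXO factors, 1 rose and 2 fell in viAPs, with a list median of 0.10. The gene that rose was Trib1. Over both depots 3 rose and 1 fell, and those that rose were Trib1, Irs2 and Gadd45a, a growth arrest gene (0.67, adjusted p = 0.0104). Pdk4, a kinase that restrains glucose oxidation, fell by 1.07 on the log2 scale in viAPs (adjusted p = 0.0253), and Trim63, a ubiquitin ligase known in muscle, fell by 0.64 (adjusted p = 0.0390) with a level below the filter. In viAPs only Jak2 and Akt2 probe set 10551393 were called among the pathway genes when SD viAP replicate 4 was left out, and the Pdk4 change was then -0.69 (adjusted p = 0.0825). Without either HFD viAP array 0 of 116 were called, with either Akt2 probe set. Of the genes named for a change over both depots, Socs3 (0.43, adjusted p = 0.0650) and Pdpk1 (0.30, adjusted p = 0.109) were no longer called without SD viAP replicate 4.

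**Figure D4:**
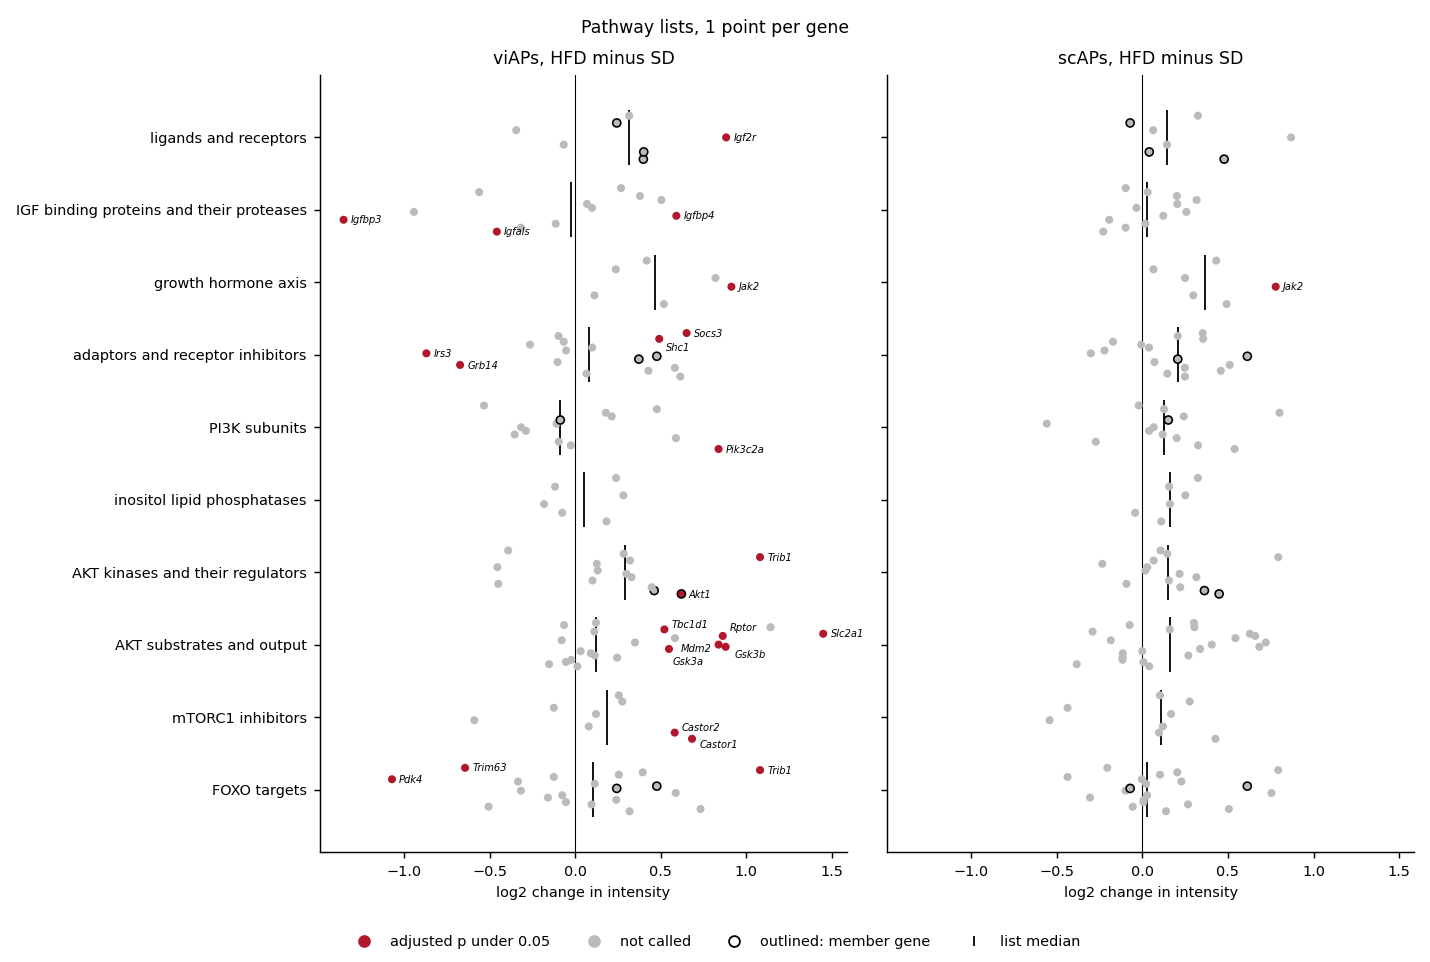
Log2 change in intensity, HFD minus SD, of each gene of the 10 pathway lists in viAPs (left) and scAPs (right), with 1 point per gene. Red marks an adjusted p under 0.05 in limma, black outlines mark member genes and vertical bars list medians. Akt2 is drawn by probe set 10374364. In viAPs 16 genes were called higher and 6 lower, and in scAPs only Jak2 was called.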

How the data were processed

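RNA of the 8 pools was read on Affymetrix Mouse Gene 1.0 ST arrays. The authors deposited 1 RMA intensity per probe set and array, as whole numbers on a linear scale, after background correction, quantile normalization and summary of the probes. Affymetrix Expression Console 1.1 is named in the submitters' notes and the oligo package in the study's methods. How the values were turned back from log2 and rounded is not given in the sources used here. The deposited intensities of 35556 probe sets were converted to log2 and not rescaled. The annotation gives 21789 probe sets 1 symbol, 1621 several and 12146 none, and only the first were tested. Of the 21789, 21698 had an Entrez ID in the reference, as did all 11 member probe sets.

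All 8 arrays entered 1 limma fit (version 3.58.1, R 4.3.3), in which each group had its own mean and eBayes moderated the variances (residual degrees of freedom 4, prior 4.58). Tests were two-sided. Benjamini-Hochberg adjustment ran over all 21789 tested probe sets, and an adjusted p under 0.05 with no minimum fold made a call. The study's own filter (log2 above 7 on at least 3 arrays and high spread) left 3076 probe sets and 4 of the 11 members, so it was used only as an alternative. The level filter alone left 7315 probe sets and 10 members. Other alternatives were a fit of only the arrays compared, log2 of the value plus 16, median centring, a second quantile normalization, array weights, a minimum of 2-fold and leaving out each array. The same settings for the pathway genes, and a count with Akt2 read by probe set 10551393, were chosen after seeing the data. The procedure was also run on simulated data with independent noise, no difference in array scaling and no aberrant array. That run therefore cannot show how the calls respond to the scaling or to SD viAP replicate 4. Groups came from the sample labels, and the number of arrays limits the precision.

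The members and lists were chosen with earlier results of these data known. Named were all member probe sets, of each pathway list the called genes with the largest changes (at most 4 per comparison) and, for members whose group means span at least 1, the 3 probe sets with the highest correlation. Lists used 1 probe set per gene, that with the highest mean. Figures were drawn with matplotlib 3.10.9.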

Additional observations from a re-analysis of the deposited data

Results flagged for a closer look

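Akt2 probe set 10551393 gave opposite directions in the 2 depots: both HFD viAP arrays lay above both SD viAP arrays, and both HFD scAP arrays lay below both SD scAP arrays. The viAP change exceeded the scAP change by 0.96, and the same 0.96 separates its depot differences, since viAPs were above scAPs on HFD and below them on SD. The difference itself was tested with limma and was not called (adjusted p = 0.186, range over the alternatives 0.0939 to 1). The scAP change taken alone had an interval that spans 0. The other Akt2 probe set, of uncertain annotation, did not show this pattern.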

How the results depend on the processing

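The count of member probe sets called in viAPs, 2 with the settings of the report, was 0 with only the arrays compared, 0 after the second quantile normalization, 0 with a minimum of 2-fold and 0 to 3 when 1 array was left out. In scAPs the count of 0 became 1 (Irs2) with log2 of the value plus 16, with median centring and with either filter, and was 0 without any 1 array. Over both depots the count of 4 became 0 after the second quantile normalization and with a minimum of 2-fold, and 0 to 5 without 1 array. Between depots, 1 member (Igf1) was called on HFD with array weights, and 0 to 1 on SD without 1 array.

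Of the pathway genes, 22 were called in viAPs (23 with Akt2 read by probe set 10551393), against 0 with only the arrays compared, 4 after the second quantile normalization and 0 to 25 without 1 array. In scAPs 1 was called, against 0 with only the arrays compared, after the second quantile normalization and with array weights, 2 with log2 of the value plus 16, 6 with median centring, 5 with either filter and 0 without any 1 array. Over both depots 33 were called, against 14 after the second quantile normalization, 19 with the filter on level and spread and 2 to 34 without 1 array. The filters test fewer genes, 73 and 31 of the 116, and the cause of the other shifts was not tested.

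For the single changes of members, 374 values under other settings stayed on the same side of the threshold, 10 became called and 8 lost the call, and without 1 array these numbers were 503, 5 and 20. None reversed, where a change whose 95% interval spans 0 was taken to have no direction. No paired analysis was possible because the array numbers 1 to 8 are not shared between groups. A lone array left in a group was assumed to vary like the others. A fit of only the arrays compared gives no value over both depots. With 2 pools per group, changes much smaller than those called could not be told from the spread between pools.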
